A study of Mus musculus with 81 samples.

Results

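The shared domains described here are stretches of the mouse genome (mm10) that lay under both macroH2A histones, mH2A1 and mH2A2, in hippocampal area CA1 of untrained mice. They were chosen from the lists of broad domains of 3 untrained mice of the 30-min ChIP-seq experiment, whose chromatin was immunoprecipitated with an antibody against each histone. The genome was laid out in bins of 200 bp, and a bin entered the consensus of a histone when it lay under a called domain in at least 2 of the 3 mice. Adjacent bins were merged, and an mH2A1 consensus domain was called shared when at least 50% of its bins lay in the mH2A2 consensus. This gave 38734 shared domains of 79716 mH2A1 consensus domains (48.6%). The remaining 40982 domains are called mH2A1-only, and 23762 of the 60235 mH2A2 consensus domains, with under 50% of their bins in the mH2A1 consensus, are called mH2A2-only. Coverage in those 6 lists chose the members and is given as a description with no test.

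MacroH2A histones replace canonical H2A in some nucleosomes and carry a large globular macrodomain that lies outside the nucleosome core. They are known from other tissues for broad domains on silent genes and on the inactive X chromosome of females, and are mostly described as repressive. mH2A1 is encoded by H2afy and mH2A2 by H2afy2, and the proteins are alike enough in sequence that an antibody has to be specific to tell them apart.

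All mice were young adult male C57BL/6J. Trained mice underwent contextual fear conditioning, in which a mouse learns to associate a place with a foot shock, and untrained mice stayed in the home cage. ChIP-seq was made on MNase-digested whole CA1 tissue of mice without virus, collected 30 min, 1 h or 6 h after training, 1 mouse per library, with the input of the same mouse as background. The mH2A1 lists come from 3 untrained and 2 trained mice at 30 min, 2 and 2 at 1 h, and 5 and 5 at 6 h, and the mH2A2 lists from 3 and 2 mice at 30 min and 3 and 3 at 1 h. At 30 min each mouse gave both antibodies, and at 1 h each mouse gave 1. The antibody against mH2A1 was from Abcam at 30 min and from Thermo Fisher at 1 h and 6 h, so that time and antibody cannot be told apart for mH2A1, while the Abcam antibody against mH2A2 was the same throughout. RNA-seq came from intact mice without virus (3 untrained, 2 trained, 1 h after training), from a depletion experiment on untrained mice (shScr, shH2afy and shH2afy2, 3 each) and from a training experiment (scrambled or mH2A1 shRNA, of which the 3 and 3 untrained and the 3 trained scrambled libraries are used here). In both virus experiments, controls included, AAV-DJ carrying a hairpin under the U6 promoter and GFP under the CMV promoter was injected into dorsal CA1 and the tissue that showed GFP was dissected. Neither promoter restricts the hairpin to 1 cell type.

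The 30 ChIP lists held 51899 to 95952 domains that cover 225.6 to 646.3 Mb, and the depth of the ChIP libraries themselves is not in the lists. The RNA libraries held 9.95 to 18.8 M counts in genes in the depletion experiment, 48.8 to 58.6 M in intact mice and 81.4 to 92.2 M over the training experiment, in which ribosomal RNA was removed and introns were counted. The targeted gene was checked first. H2afy stood at 56.1, 55.04 and 49.8 CPM (counts scaled to the total of the library, as for both targeted genes, level bands per kb and marker sums) in the 3 shScr libraries of the depletion experiment and at 47.7, 49.2 and 42.2 CPM in the shH2afy libraries (log2 fold change -0.37, SE 0.10, edgeR adjusted p = 0.031), a difference that did not reach the thresholds used for genes. H2afy2 stood at 16.8, 17.7 and 17.9 CPM in shScr and at 12.4, 8.16 and 7.45 CPM in shH2afy2 (log2 fold change -0.95, SE 0.22, edgeR adjusted p = 0.091). In the training experiment H2afy was not lower in the labelled libraries, at 76.0, 73.1 and 74.3 CPM in untrained scrambled libraries and at 95.2, 99.4 and 96.7 CPM in the untrained libraries labelled mH2A1 shRNA. In edgeR, which scales the libraries by TMM factors as well, the log2 fold change was 0.13 (SE 0.05, adjusted p = 0.0868), so that it did not pass the thresholds. Levels of all other single genes are CPM scaled in that way within each comparison. Defining markers of CA1 pyramidal neurons (Wfs1, Fibcd1, Mpped1 and Pou3f1) were present in every library. Libraries that stood apart were shH2afy replicate 3 and shH2afy2 replicate 2 in immune RNA, shScr replicate 3 as the shallowest of the depletion experiment, the first untrained mH2A2 list of 1 h in coverage, and the second trained mH2A2 list of 30 min, the smallest of all. The untrained 1 h libraries titled mH2A1 carry an antibody tag that names mH2A2. They covered 79.8 and 71.02% of mH2A1-only bins, where the trained 1 h mH2A1 lists covered 75.1 and 79.2% and the mH2A2 lists of 1 h 27.0 to 45.3%, and they were used as titled.

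The 3 domain sequences printed first show the range of what the shared domains hold, 2 from the middle of the longest domains and 1 from the domain with the most annotated gene starts. They are the plus strand of GRCm38.p6 (mm10), the middle 200-bp bin of each domain, with CpG dinucleotides in capitals. The bin at chr17:45889601-45889800 lies in the longest domain, whose nearest protein-coding start is that of Vegfa, and holds 5 CpG at 60.5% GC with no repeat-masked base. The bin at chr8:120936601-120936800 lies in the second longest, near Foxf1, with 8 CpG at 62% GC. The bin at chr9:3036401-3036600 is repeat-masked over 93.5% of its length, at 36.5% GC.
Near Vegfa: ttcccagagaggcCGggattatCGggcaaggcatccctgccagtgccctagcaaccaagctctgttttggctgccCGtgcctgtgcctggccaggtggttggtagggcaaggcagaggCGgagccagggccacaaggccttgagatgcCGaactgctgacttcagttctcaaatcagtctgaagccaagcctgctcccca
Near Foxf1: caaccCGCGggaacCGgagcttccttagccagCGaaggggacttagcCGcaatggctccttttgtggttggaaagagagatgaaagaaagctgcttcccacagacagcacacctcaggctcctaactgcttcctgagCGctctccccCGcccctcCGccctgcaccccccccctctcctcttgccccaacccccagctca
Chromosome 9 repeat: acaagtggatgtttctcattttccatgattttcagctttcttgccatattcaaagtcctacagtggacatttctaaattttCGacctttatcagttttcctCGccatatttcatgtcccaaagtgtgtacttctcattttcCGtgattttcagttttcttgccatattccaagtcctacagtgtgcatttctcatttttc

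Promoter sequences were taken from RefSeq (GRCm38.p6), 250 bases before the start of the gene on its own strand, again with CpG in capitals. They are shown because the genes that start in shared domains fall into kinds that the later results treat differently. Gata5, Prdm16 and Egr2 encode transcription factors and their windows hold 22, 22 and 26 CpG. Sst encodes the neuropeptide somatostatin of inhibitory neurons, with 8 CpG, C1qb a subunit of the complement protein C1q of microglia, with 6, and Klk1 the protease tissue kallikrein, with 0.
Gata5 (chr2:180334680-180334929, minus strand): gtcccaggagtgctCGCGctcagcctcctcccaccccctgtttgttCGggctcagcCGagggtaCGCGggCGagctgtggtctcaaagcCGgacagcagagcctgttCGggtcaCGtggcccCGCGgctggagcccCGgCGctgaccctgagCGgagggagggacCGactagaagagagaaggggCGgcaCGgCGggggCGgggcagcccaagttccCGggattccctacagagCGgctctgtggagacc
Prdm16 (chr4:154636874-154637123, minus strand): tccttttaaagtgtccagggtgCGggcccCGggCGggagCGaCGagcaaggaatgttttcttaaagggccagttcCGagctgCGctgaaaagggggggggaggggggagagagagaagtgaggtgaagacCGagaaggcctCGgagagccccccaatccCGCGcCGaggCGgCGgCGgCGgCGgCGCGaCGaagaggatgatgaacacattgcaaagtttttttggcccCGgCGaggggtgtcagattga
Egr2 (chr10:67535249-67535498, plus strand): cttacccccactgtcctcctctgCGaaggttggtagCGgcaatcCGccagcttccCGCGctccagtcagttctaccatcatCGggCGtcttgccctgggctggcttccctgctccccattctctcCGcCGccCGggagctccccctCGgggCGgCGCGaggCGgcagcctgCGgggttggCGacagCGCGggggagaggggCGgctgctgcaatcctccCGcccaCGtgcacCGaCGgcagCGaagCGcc
Sst (chr16:23890845-23891094, minus strand): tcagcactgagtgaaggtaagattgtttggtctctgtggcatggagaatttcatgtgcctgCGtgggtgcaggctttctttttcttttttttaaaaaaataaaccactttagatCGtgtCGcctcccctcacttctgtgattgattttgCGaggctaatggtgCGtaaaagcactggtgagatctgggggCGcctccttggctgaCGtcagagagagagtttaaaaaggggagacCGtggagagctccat
C1qb (chr4:136886201-136886450, minus strand): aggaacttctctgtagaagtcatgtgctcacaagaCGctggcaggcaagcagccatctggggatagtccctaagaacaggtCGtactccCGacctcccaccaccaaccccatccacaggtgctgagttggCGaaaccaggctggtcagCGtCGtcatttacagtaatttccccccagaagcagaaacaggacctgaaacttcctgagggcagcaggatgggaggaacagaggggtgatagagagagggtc
Klk1 (chr7:44225110-44225359, plus strand): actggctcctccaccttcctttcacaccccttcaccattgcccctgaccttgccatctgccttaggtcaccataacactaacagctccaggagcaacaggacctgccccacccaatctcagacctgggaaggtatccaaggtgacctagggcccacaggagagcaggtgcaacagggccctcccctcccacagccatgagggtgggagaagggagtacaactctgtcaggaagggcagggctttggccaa

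Shared domains covered 229.64 Mb, which is 8.43% of the genome, against 130.64 Mb for mH2A1-only and 86.4 Mb for mH2A2-only domains. The consensus sets spanned 360.28 Mb for mH2A1 and 326.81 Mb for mH2A2, and the 212.66 Mb in both made up 59.0% of the first and 65.1% of the second. Of the shared domains, 19890 (51.4%) lay in the mH2A2 consensus over their whole length, and 87.9% of all shared bins did. Only 31.7% of shared bins were under a domain in all 6 lists. The choice of members therefore turned on the rule, and the count fell to 18371 when a bin had to be covered in all 3 mice and to 19890 when all bins had to be in the mH2A2 consensus. Leaving out mouse 1, 2 or 3, so that both remaining mice had to cover a bin, left 26629, 20371 or 26861 shared domains. Domains just inside the limit of 50% (50 to 55% of bins, 1376 domains) had a median length of 4400 bp, and those just outside it (45 to 50%, 729 domains) of 5600 bp. In the 1 h mH2A2 lists, which the rule did not use, the first were covered over 49.6% of their bins and the second over 51.6%.

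The median length of shared domains was 3600 bp, the tenth percentile 1200 bp, the ninetieth 12400 bp and the longest 187200 bp. mH2A1-only domains had a median of 2400 bp and mH2A2-only domains of 3000 bp. The 1624 shared domains of 20 kb and more were 4.19% of the domains and held 23.4% of the shared bases, and 24 domains reached 100 kb. At the other end, 2014 domains (5.20%) were shorter than 1 kb.

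Shared domains were richer in G and C than the rest of the genome. Their GC content was 49.1%, against 47.0% in mH2A1-only domains, 48.2% in mH2A2-only domains, 40.2% outside both consensus sets and 41.7% over the genome. The ratio of observed to expected CpG was 0.21, against 0.20 in mH2A1-only, 0.22 in mH2A2-only domains and 0.19 in the genome. Repeat-masked bases made up 24.9% of shared domains, against 28.1% of mH2A1-only and 36.4% of the genome. These are descriptions over the genome with no test, since neighbouring bins are not independent.

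The chromosomes differed in how much of them was shared. Chromosome 7 had the highest share, at 16.4% of its length, followed by chromosomes 5 (14.1%), 4 (14.0%), 11 (13.8%) and 17 (13.2%), and chromosome 3 had the lowest of the autosomes, at 3.05%. The X chromosome held 81 shared domains over 0.169% of its length and the Y chromosome 24. All 30 lists covered little of the single X of these males, 0.0778 to 0.394%, where autosomes were covered over 9.13 to 26.2%. The Y chromosome, also a single copy, was covered over 0.0278 to 0.123% on average by antibody and time. Why both were covered so little was not tested.

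Most shared domains lay outside protein-coding genes, as does most of the genome. Of the 38734 domains, 22443 (57.9%) were wholly outside protein-coding genes, 13107 (33.8%) lay inside or over a gene body without a start, and 3184 (8.22%) held the start of a protein-coding gene. By bins, 59.0% of shared bins lay outside these genes, against 72.3% of mH2A1-only, 37.4% of mH2A2-only and 61.7% of all bins. An exon was overlapped by 10.5% of shared bins, against 4.32% in mH2A1-only domains, 15.1% in mH2A2-only domains and 5.04% in the genome. Introns alone made up 30.5% of shared bins, against 23.4% of mH2A1-only, 47.6% of mH2A2-only and 33.3% of all bins. Gene starts were found in 0.308% of shared bins, against 0.193% of mH2A1-only, 0.304% of mH2A2-only and 0.158% of all bins of the genome.

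The 10 longest shared domains are given with the genes that they hold or lie next to. The longest, chr17:45796001-45983200, spans 187.2 kb, holds no protein-coding gene and has as its nearest start that of Vegfa, which encodes a growth factor of vessels. It was covered over 99.6 to 100% in the 10 mH2A1 lists of 6 h and over 66.99 to 95.1% in the 6 mH2A2 lists of 1 h. The second (chr8:120845001-121028200, 183.2 kb) and the fifth (chr8:121234201-121385000, 150.8 kb) have as nearest starts those of Foxf1 and Foxl1, which encode forkhead transcription factors of the mesoderm.

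The third, chr2:180271401-180427000, holds the starts of Cables2, Rbbp8nl and Gata5, the last a transcription factor of heart and gut development. The fourth, chr4:140305601-140457200, lies near Igsf21, which encodes a synaptic adhesion protein, and was covered over 79.4 to 99.3% in the 6 mH2A2 lists of 1 h. The sixth, chr4:154508201-154644200, holds the start of Prdm16, a regulator of brown fat and neural stem cells. The seventh, chr7:144734801-144869400, holds Ano1, Fgf3 and Fgf4, of which the Fgf genes encode embryonic growth factors. The eighth (chr5:35357201-35491400) holds Hmx1, a transcription factor of eye and ear, and the ninth (chr2:172841201-172972600) Bmp7, a growth factor of the BMP family. These 9 domains lay in the mH2A2 consensus over 92.2 to 100% of their bins. The tenth, chr2:173294201-173421800 near Pmepa1, was the exception at 81.2%, and the mH2A2 lists of 1 h covered it over 37.3 to 74.3% where the mH2A1 lists of 6 h covered 99.4 to 100%.

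The 3 domains with the most gene starts were of another kind, since at least the first and second lie over tandem copies. The first, chr9:3000001-3072800, holds 9 predicted genes and consists of repeats over 75.03% of its bases. All 10 lists of 30 min covered it over 99.7 to 100%, but the 10 mH2A1 lists of 6 h over 53.6 to 89.3% and the 6 mH2A2 lists of 1 h over 19.5 to 88.7%. Reads of such copies can map to many places, so its coverage is uncertain. The second, chr7:44184401-44233800, holds Klk1 and its copies Klk1b3, Klk1b4, Klk1b5 and Klk1b24, and the third, chr10:77834001-77872000, holds Krtap10-10, a keratin-associated protein gene, and 3 predicted genes. They were covered over 94.3 to 100% and 97.4 to 100% in the mH2A1 lists of 6 h.

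Of 21938 protein-coding genes of the GENCODE annotation, 3571 started in a shared domain, which is 16.3%. This is the background for each list of genes except the immunoglobulin and T cell receptor segments. Those were drawn from all annotated genes, of which 14.9% did (8251 of 55413). Another 1264 started in mH2A1-only and 1338 in mH2A2-only domains. The share was 16.3% for lincRNAs (953 of 5854) and 20.0% for miRNA genes (441 of 2202). The lists named here were chosen with results of these data known, so their shares are descriptions.

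**Figure D1:**
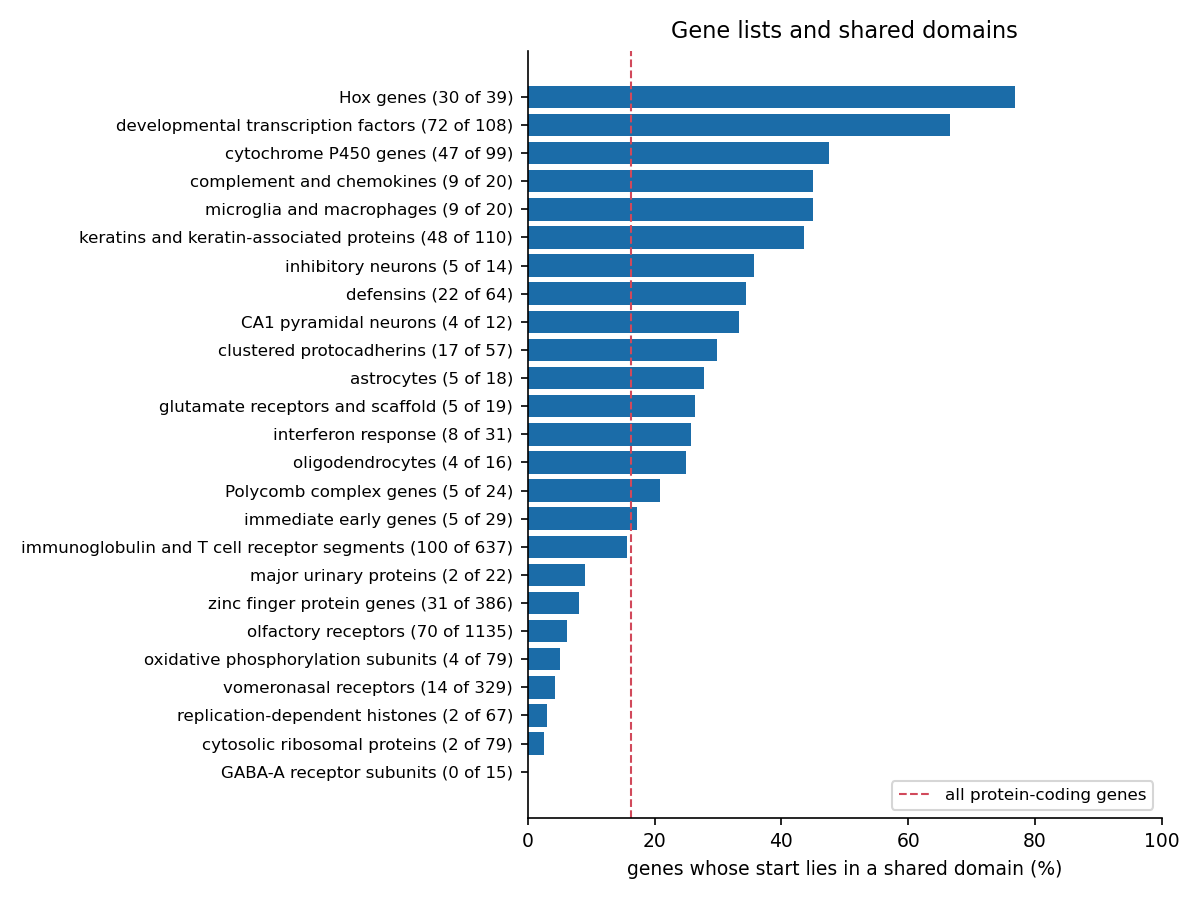
Percent of the genes of each list whose start lies in a shared domain, with counts in brackets and the 16.3% of all protein-coding genes as a dashed line. Hox genes (30 of 39) and developmental transcription factors (72 of 108) stand highest, and GABA-A receptor subunits (0 of 15) lowest.

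Genes of body patterning were the most often shared. Of 39 Hox genes, which set the identity of body segments, 30 started in a shared domain, 6 in an mH2A1-only domain and 3 elsewhere. Of 108 other developmental transcription factors, 72 did, beside 16 in mH2A1-only domains. Genes of other tissues came next, with 47 of 99 cytochrome P450 genes of liver metabolism, 48 of 110 keratins and keratin-associated proteins of skin and hair, and 22 of 64 defensins, which are antimicrobial peptides. Several of these families lie in clusters, so their members are not independent of each other.

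Genes of glia and immunity were shared more often than the background as well. The start was shared for 9 of 20 genes of microglia and macrophages (45%) and 9 of 20 of complement and chemokines (45%). The counts were 8 of 31 (25.8%) for the interferon response and 5 of 18 (27.8%) for astrocytes. Most neuronal lists stood above the background too. They held 4 of 12 genes of CA1 pyramidal neurons (33.3%) and 5 of 14 of inhibitory neurons (35.7%). Glutamate receptors and their scaffold held 5 of 19 (26.3%). The exception was the list of GABA-A receptor subunits, with 0 of 15. Of 29 immediate early genes, which are induced within minutes of neuronal activity, 5 started in a shared domain (Arc, Egr2, Klf4, Nptx2 and Sik1).

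Genes used in every cell were seldom shared, with 2 of 79 cytosolic ribosomal proteins and 4 of 79 subunits of oxidative phosphorylation. The share was also low for replication-dependent histones, with 2 of 67. Receptors of smell, which are made in the nose, were seldom shared too, with 70 of 1135 olfactory and 14 of 329 vomeronasal receptors. Zinc finger protein genes held 31 of 386. Immunoglobulin and T cell receptor segments held 100 of 637 (15.7%), near their background of 14.9%.

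Promoters of shared genes were poorer in CpG than those of other genes, although the domains were richer in GC. RefSeq windows whose start lay within 200 bp of the GENCODE start were found for 2043 of 3566 shared gene symbols and for 12617 of 21911 in all. The median number of CpG in the 250 bases before the start was 5 for shared genes, 6 for mH2A1-only, 11 for mH2A2-only and 13 for genes that started elsewhere. Windows with at most 3 CpG made up 37.5% of the shared and 20.8% of the other windows, and those with 15 or more 21.9 and 45.9%. The letters TATAAA, searched on both strands, were found in 12.9% of shared windows and in 10.8% of all windows of that length.

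The lists differed within the shared class. Windows of 33 developmental transcription factors had a median of 16 CpG and those of 13 Hox genes of 14. Those of 29 keratins and keratin-associated proteins had a median of 3, of 38 cytochrome P450 genes of 2 and of 12 defensins of 1.5. TATAAA was found in 16 of the 29 keratin windows and 15 of the 38 cytochrome P450 windows, but in 2 of the 33 of developmental transcription factors. A match is a description of the letters and not of a site in use.

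Coverage in libraries that the rule did not use shows how far the shared class held in other mice. The mH2A2 antibody separated the classes again at 1 h. It covered 57.9, 68.7 and 65.4% of shared bins in untrained mice and 60.8, 51.8 and 67.8% in trained mice, and 45.3, 37.0, 36.1, 31.8, 27.0 and 39.5% of mH2A1-only bins in the same order. Shared bins were covered more in all 6 libraries, by 26.0 percentage points (SD 6.89, n = 6, exact sign-flip permutation test, two-sided p = 0.0313, adjusted over 3 tests 0.0469). With 6 libraries 0.0313 is the smallest p the test allows, and without any 1 of them it cannot pass. mH2A2-only bins were covered over 32.4 to 52.7%, less than shared bins in each of these libraries.

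**Figure D2:**
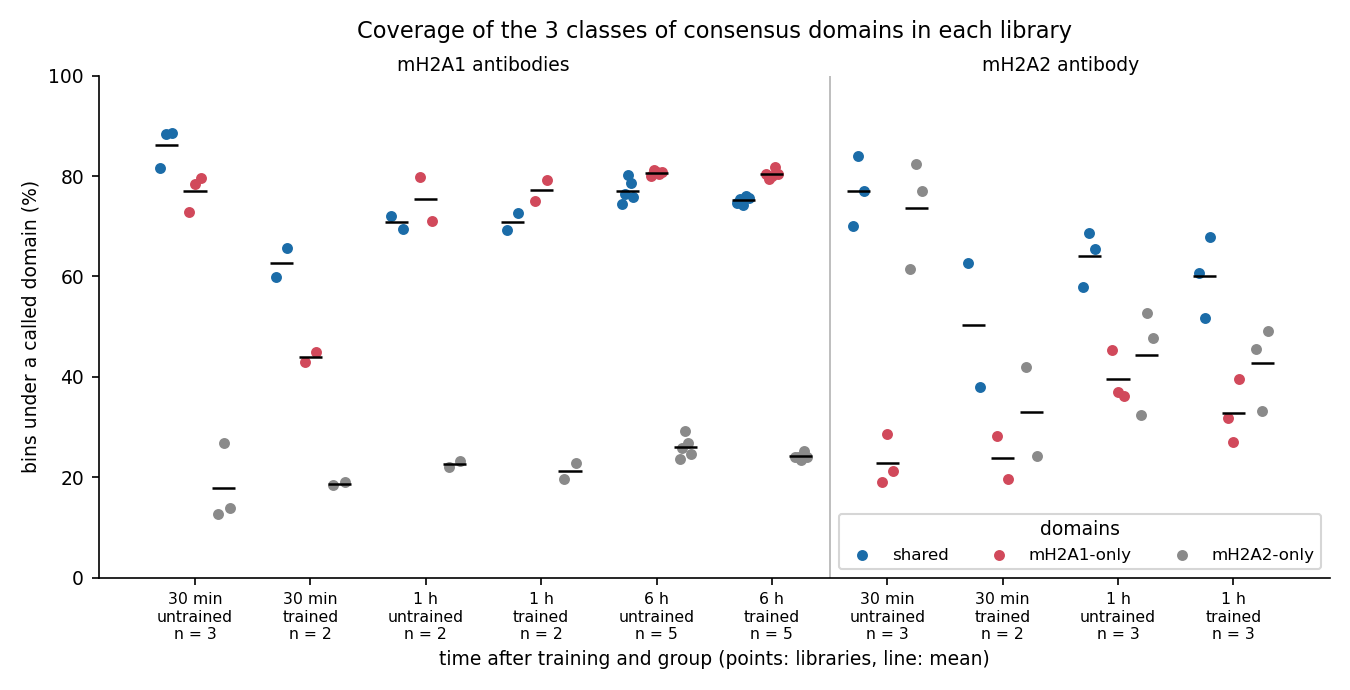
Percent of bins of shared, mH2A1-only and mH2A2-only domains that lay under a called domain in each of the 30 libraries, by antibody, time and training, with the mean of each group as a line. The untrained 30-min lists chose the classes, and in the mH2A2 lists of 1 h shared bins stand above mH2A1-only bins in 6 of 6 libraries, while in the mH2A1 lists of 6 h they stand below them in 10 of 10.

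The mH2A1 antibody of the later times did not favour shared domains. At 6 h it covered 74.4, 76.4, 80.3, 78.6 and 75.9% of shared bins in untrained and 74.6, 75.5, 74.2, 76.0 and 75.7% in trained mice, against 80.0 to 81.2% and 79.4 to 81.8% of mH2A1-only bins. Shared bins were covered less in 10 of 10 libraries, by 4.36 points (SD 1.83, n = 10, exact sign-flip permutation test, two-sided, adjusted p = 0.00586). At 1 h they were covered less in 4 of 4 libraries, by 5.43 points (SD 2.67), but 4 libraries cannot give a p below 0.125. At 30 min the Abcam antibody had covered 81.6, 88.3 and 88.5% of shared and 72.9 to 79.6% of mH2A1-only bins in the mice that chose the classes. In the 2 trained mice of 30 min it covered 59.9 and 65.6% of shared and 42.9 and 45.04% of mH2A1-only bins. The later lists also covered more of the bins outside both consensus sets, 11.8 to 15.3% against 3.13 to 4.73% for mH2A1 at 30 min.

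Among covered bins of the 1 h and 6 h lists the enrichment was higher in shared domains for both histones. The deposited log2 of ChIP over input had a median of 0.91 to 1.00 in shared bins over the 10 mH2A1 lists of 6 h and was above that of mH2A1-only bins in 10 of 10, by 0.18 (SD 0.01, exact sign-flip permutation test, adjusted p = 0.00586). At 1 h the difference was 0.15 (SD 0.03, 4 of 4 libraries, exact p = 0.125, the smallest possible). In the mH2A2 lists of 1 h it was 0.16 (SD 0.05, 6 of 6, exact adjusted p = 0.0469). At 30 min, where the untrained lists chose the classes, no test was made. The difference there was -0.034 to 0.043 in untrained and 0.008 to 0.032 in trained mH2A2 lists. In the mH2A1 lists of 30 min it was 0.041 to 0.088 in untrained and 0.020 to 0.030 in trained mice. The log2 values of different lists were not compared, since each depends on its own library.

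Length and base composition moved with these differences. Coverage of shared domains by mH2A1 at 6 h was higher in longer domains, from 52.2% under 1 kb and 59.2% at 1 to 5 kb to 78.6% at 5 to 20 kb and 91.0% at 20 kb and more, and mH2A1-only domains of the same classes were covered over 66.8, 73.8, 90.3 and 96.8%. Within each length class the shared domains were therefore further below, by 14.5, 14.5, 11.7 and 5.72 points. By GC the direction turned. The domains were laid in 4 GC classes that hold equal numbers of shared domains. In the lowest (under 46.2% GC) shared bins were covered less by 17.9 points in 10 of 10 libraries, in the second by 2.34 points in 8 of 10, while in the third they were covered more by 2.12 points in 10 of 10 and in the highest by 1.35 points in 9 of 10. The same turn was found at 1 h, at -18.0, -1.90, 3.69 and 2.01 points. For mH2A2 at 1 h shared bins were covered more in every library of every GC class, by 17.8 to 24.6 points on average. These classes were added after the data were seen.

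**Figure D3:**
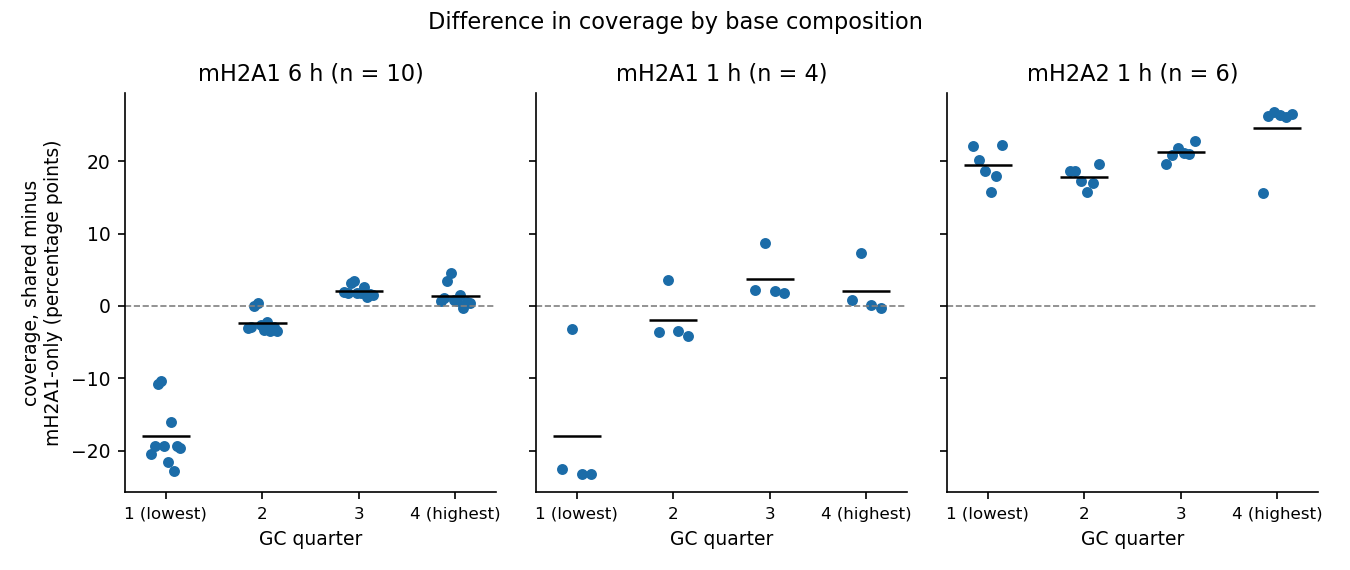
Coverage of shared minus mH2A1-only bins, in percentage points, in 4 classes of GC content, with 1 point per library and the mean as a line. For mH2A1 the mean goes from -17.9 in the lowest to 1.35 in the highest class at 6 h, and for mH2A2 it stays between 17.8 and 24.6.

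Single domains were found again to unequal degrees. A domain was counted as found when at least as many of its bins lay under a domain of the list as lay outside. A domain that was not found could still have some bins covered. All 14 mH2A1 lists of 1 h and 6 h found 17040 shared domains (44.0%) and 17926 mH2A1-only domains (43.7%). No such list found 6415 shared domains (16.6%) and 3041 mH2A1-only domains (7.42%). All 6 mH2A2 lists of 1 h found 6063 shared (15.7%) and 1257 mH2A1-only domains (3.07%), and all 20 later lists together 3941 (10.2%) and 928 (2.26%). Pairs of replicates shared 86.2 to 89.1% of the bins covered by either within shared domains for mH2A1 at 6 h, and 48.7 to 66.6% for mH2A2 at 1 h.

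Training was compared over the libraries that the rule did not use. At 6 h trained mice had 1.93 points less of shared bins under mH2A1 (75.2 ± 0.766 against 77.1 ± 2.34%, SD, n = 5 and 5), which did not pass (exact permutation test, two-sided p = 0.119, adjusted over 3 tests 0.357). At 1 h the difference for mH2A1 was 0.128 points (70.9 ± 2.41 against 70.8 ± 1.92%, n = 2 and 2, exact p = 1, where 0.333 is the smallest possible). For mH2A2 at 1 h it was -3.90 points (60.1 ± 8.04 against 64.0 ± 5.53%, n = 3 and 3, exact p = 0.6, where 0.1 is the smallest possible), and without trained replicate 2 it was 0.268. At 30 min trained mice covered 62.8 ± 4.00% of shared bins with mH2A1 (n = 2) and 62.8 and 38.0% with mH2A2, below the untrained mice, but the untrained lists chose the domains and no test was made.

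Genes that started in shared domains were weakly expressed. In the 3 intact untrained libraries their median was 0.256, 0.257 and 0.246 CPM, against 0.530 for mH2A1-only (mean of 3), 13.1 for mH2A2-only and 13.7 for other protein-coding genes. Per kb of exons the medians were 0.0902, 0.172, 3.19 and 2.96 CPM. Of the 3256 shared genes measured, 27.8 to 28.7% had no count, and 38.5 to 39.0% reached 1 CPM. The shScr libraries of the depletion experiment had a median of 0.276 ± 0.111 CPM (SD, n = 3), and the untrained scrambled libraries of the training experiment, with introns counted, 0.318 ± 0.0112 CPM. This is a description across genes, with no test.

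The relation to level was not even. Of genes without a count 20.0% started in a shared domain, of those up to 0.1 CPM per kb 35.3%, and of those between 0.1 and 1 CPM per kb 26.3%. The share was 9.17% at 1 to 10, 6.14% at 10 to 100 and 8.44% at 100 CPM per kb and more. Starts in mH2A2-only domains went the other way, from 3.79% of genes without a count to 10.9% of the highest band. The 27 shared genes of the highest band are thus an exception to the low level of the class.

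**Figure D4:**
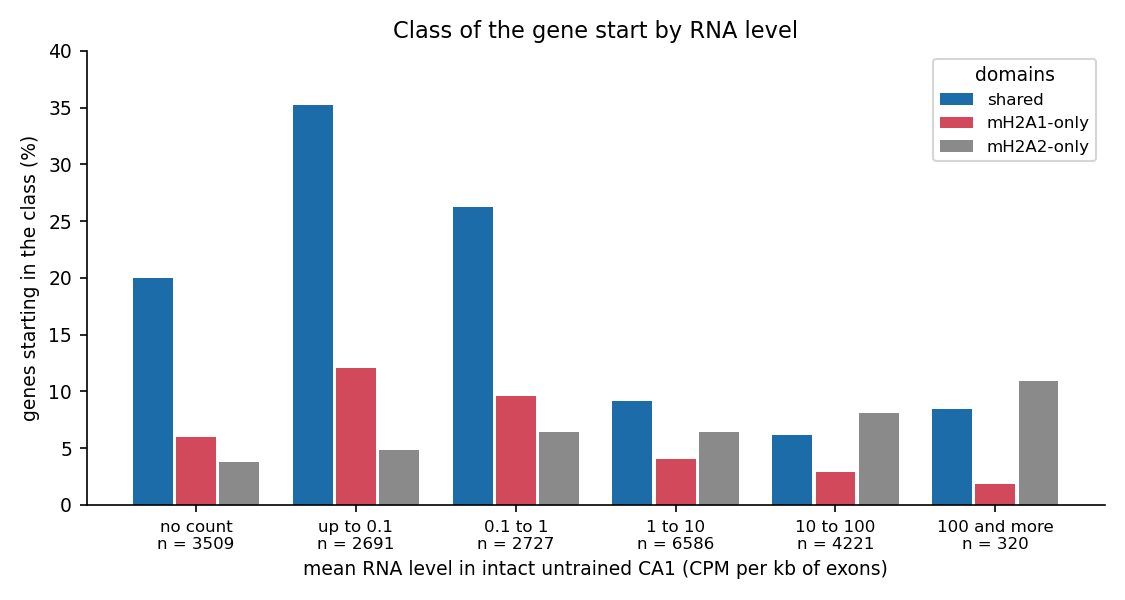
Percent of protein-coding genes whose start lies in a shared, an mH2A1-only or an mH2A2-only domain, in 6 bands of mean RNA level (CPM per kb of exons) in intact untrained CA1. Shared starts peak at 35.3% in the band up to 0.1 and fall to 6.14% at 10 to 100, while mH2A2-only starts rise to 10.9%.

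Shared genes differed in level between shH2afy and shScr, more of them higher than lower. Of 8251 annotated genes of any kind that started in a shared domain, 1914 passed the filter on low counts in the comparison of shH2afy with shScr, and a gene that passed through high counts in 1 group only had to differ. Past an adjusted p of 0.01 and a fold change of 2 (edgeR quasi-likelihood test), 476 were higher (24.9%, against 10.5% of all genes tested) and 39 lower (2.04%, against 1.2%). The median log2 fold change was 0.25 over the shared genes and 0.01 over all genes tested. The share called was 26.9% for shared, 25.5% for mH2A1-only, 10.6% for mH2A2-only and 8.48% for other starts. Within bands of level, at 1 to 10 CPM 26.7% of shared and 12.8% of other genes were higher and at 10 to 100 CPM 29.4 and 6.87%. At 100 CPM and more 10.8% of shared genes were higher, but their median log2 fold change was -0.51, against -0.25 for other genes of that level. The count of 515 depended on single libraries, and was 283 without shH2afy replicate 1, 635 without shH2afy replicate 3, and 343, 306 and 303 without shScr replicates 1, 2 and 3.

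Genes of the interferon, complement, microglia and astrocyte lists with shared starts were higher in shH2afy, except Cx3cl1 and Sox9. All 8 tested interferon-response genes were higher (median log2 fold change 6.04), among them Oas2, a sensor of viral RNA, at 16.4 ± 1.49 CPM (SD, n = 3) against 0.257 ± 0.0585 CPM, and Bst2, which tethers viruses to the membrane, at 117 ± 35.0 against 2.75 ± 1.53 CPM. Of 9 complement and chemokine genes 8 were higher (median 4.43). C1qb, whose promoter is printed above, stood at 695.5 ± 264 against 45.1 ± 11.6 CPM, and the exception was Cx3cl1, a chemokine made by neurons, at 473.5 ± 56.3 against 775.5 ± 83.8 CPM (log2 fold change -0.71, under the fold threshold).

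All 9 genes of microglia and macrophages were higher (median 3.41), among them Siglech at 46.1 ± 2.41 against 16.1 ± 3.26 CPM and Cx3cr1, the receptor of Cx3cl1, at 294 ± 51.7 against 54.2 ± 10.8 CPM. Of 5 astrocyte genes 4 were higher and Sox9 missed the fold threshold at a log2 fold change of 0.97. The higher ones include Gfap, the filament protein of reactive astrocytes, at 3530 ± 186.5 against 383 ± 178 CPM. Lcn2, which encodes the secreted protein lipocalin 2, stood at 158.6, 167.7 and 96.6 CPM in shH2afy and at 0.0679, 0.124 and 0.107 CPM in shScr (log2 fold change 10.35, SE 0.39, edgeR adjusted p = 4.01e-05). All 3 shH2afy libraries were far above all shScr libraries, whose counts summed to 4.

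The other genes named here are those with the largest increase among shared genes, by the rule for named genes. Ccn5, a matrix protein, stood at 36.8, 45.4 and 27.4 CPM against 0.136, 0.0618 and 0.107 CPM (log2 fold change 8.40, SE 0.35, edgeR adjusted p = 4.01e-05). Zbp1, a sensor of nucleic acids, stood at 48.9, 49.5 and 17.2 CPM against 0.0679, 0.0618 and 0.533 CPM (log2 fold change 7.70, SE 0.72). Tnf, an inflammatory cytokine, and Apol9a had no count in shScr and were at least 68.97-fold and 66.98-fold higher, taking the limit of 3 counts for the whole shScr group. Ly6c2, Ly6i, Plbd1, Mylk2 and H19 had 1 or 2 counts over the 3 shScr libraries and 537 to 1476 over the 3 shH2afy libraries. Ly6c2 and Ly6i have close copies, so their counts are uncertain.

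Of genes with shared starts, 3 of 5 tested on the inhibitory neuron list, 1 of 4 on the CA1 list and 0 of 5 on the glutamate receptor list were lower in shH2afy. Sst stood at 59.1, 94.8 and 50.9 CPM in shH2afy and at 372.3, 168.8 and 253.0 CPM in shScr (log2 fold change -1.95, SE 0.34, edgeR adjusted p = 0.0047). Pvalb, a calcium-binding protein of another class of inhibitory neurons, stood at 9.43, 15.6 and 12.2 against 40.1, 43.0 and 39.1 CPM (log2 fold change -1.71, SE 0.18). For both genes the groups did not overlap, and with Lhx6 they were the 3 lower genes of inhibitory neurons, while Calb2, a calcium-binding protein, had a log2 fold change of 0.21 (edgeR adjusted p = 0.716). Mpped1 was the 1 of 4 genes of CA1 pyramidal neurons past the thresholds, at 111 ± 32.1 against 342 ± 95.6 CPM, while Camk2a, a kinase of synaptic plasticity, stood at 2020 ± 992 against 3954 ± 502 CPM (log2 fold change -0.97, edgeR adjusted p = 0.058).

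Ankrd63 stood at 6.99, 11.1 and 9.98 against 65.1, 29.4 and 75.6 CPM, and Ntsr1, a receptor of neurotensin, at 0.839, 0.956 and 2.496 against 4.82, 13.3 and 8.84 CPM. These were the largest decreases among shared genes by the rule that named them (log2 fold change -2.59 and -2.66). Myh7, Gpr83, Tesc, Cyp4f15 and Vstm2l were lower too, by 1.45 to 2.27 on the log2 scale. Of 5 glutamate receptor and scaffold genes 0 passed both thresholds, with log2 fold changes of -1.12 to -0.71.

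Of the patterning genes, the most often shared, few could be tested or were called. None of the 30 shared Hox genes passed the filter on low counts. Of 24 tested developmental transcription factors 1 was higher and 1 lower, against 10.5 and 1.2% of all genes tested. Their median log2 fold change was 0.03. The higher one was Pax1, a factor of the skeleton and thymus named after its values were seen, at 1.94 ± 1.42 against 0.0767 ± 0.0670 CPM, and the lower one was Lhx6, a factor of inhibitory neurons. Of 16 clustered protocadherins 0 were called, and of 5 immediate early genes Nptx2, a secreted synaptic protein, was higher (log2 fold change 1.39).

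**Figure D5:**
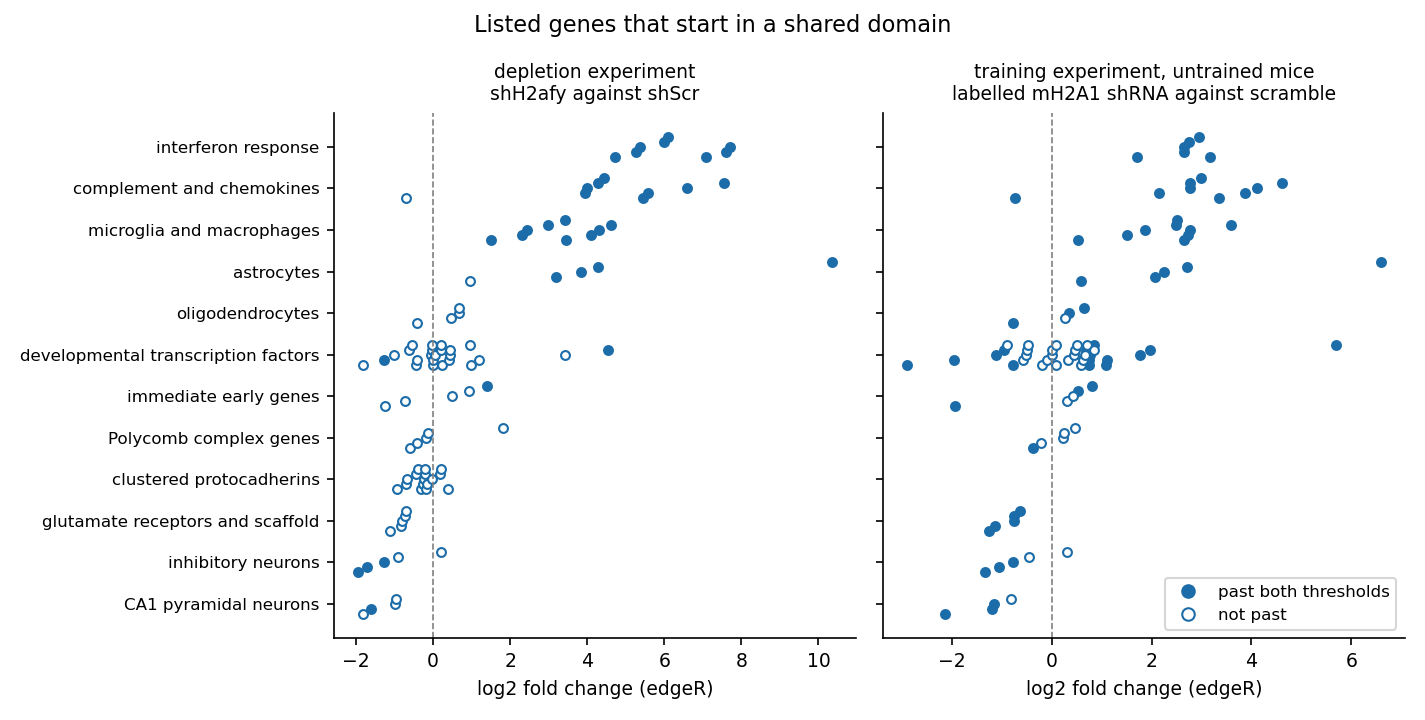
Log2 fold change (edgeR) of listed genes whose start lies in a shared domain, in shH2afy against shScr of the depletion experiment and in untrained mice labelled mH2A1 shRNA against scramble of the training experiment, with filled points past both thresholds. Interferon, complement, microglia and astrocyte genes lie to the right in both except Cx3cl1, with medians of 6.04, 4.43, 3.41 and 3.85 in the first, while the medians of the CA1, inhibitory and glutamate receptor lists lie to the left at -1.31, -1.28 and -0.80.

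Markers of cell types moved with these genes, but the markers are in part the same genes. A shared start is held by 2 of the 4 microglia, 1 of the 4 astrocyte and 3 of the 5 inhibitory markers. The same holds for 3 of the 4 CA1 markers and 1 of the 3 dentate markers, so the sums are not a separate readout. In shH2afy the summed level of 4 microglia markers was 812 to 1156 CPM against 164 to 235 in shScr, that of 4 astrocyte markers 4867 to 5600 against 903 to 1296, that of 5 inhibitory markers 518 to 663 against 906 to 1002 CPM, and that of the 4 CA1 pyramidal markers named above 412.5 to 575 against 753 to 1666 CPM. The 3 markers of dentate granule neurons summed to 83.04 to 458 against 22.5 to 299 CPM, so that these groups overlapped. All of these markers were measured and none was at 0. Of the B and plasma cell markers the sum was 623 and 907 CPM in 2 shH2afy libraries and 0.521 CPM in replicate 3, against 0.294 to 0.703 CPM in shScr. Their part in the result was not tested. In bulk tissue, fewer cells of a type and less RNA per cell cannot be told apart.

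The training experiment gave a second comparison of untrained mice, with the limit that H2afy was not lower in the libraries labelled mH2A1 shRNA. Of 2144 shared genes tested, 937 were higher (43.7%, against 25.2% of all genes tested) and 231 lower (10.8%, against 18.5%) at an adjusted p of 0.05 and a fold change of 1.2. The median log2 fold change was 0.44 over shared genes. Of mH2A1-only genes 56.4% were called, of mH2A2-only genes 45.5% and of others 40.6%, beside 54.5% of shared genes. At 100 CPM and more the shared genes again had a median log2 fold change under 0, at -0.40, against -0.23 for other genes of that level.

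All 6 interferon-response genes, 9 microglia genes and 5 astrocyte genes tested were higher here. Of 9 complement and chemokine genes 8 were higher and Cx3cl1 was lower (log2 fold change -0.74), and of 4 oligodendrocyte genes Mag and Sox10 were higher (0.35 and 0.65), Mal was lower (-0.77) and Olig2 was not called. Lcn2 stood at 46.6, 32.4 and 62.5 CPM against 0.535, 0.292 and 0.631 CPM (log2 fold change 6.59, SE 0.35, edgeR adjusted p = 8.1e-05). Cfb, a protease of the complement cascade, stood at 16.5, 49.5 and 31.9 against 0.864, 0.990 and 2.18 CPM. Lower were 3 of 4 CA1 genes, 3 of 5 genes of inhibitory neurons and all 5 glutamate receptor and scaffold genes. Of all genes tested 18.5% were lower, but at 100 CPM and more 64 of 123 shared and 811 of 1944 other genes were. Gria1, Grin2a, Camk2b and Grin1 of the glutamate receptor list lie at that level. Fibcd1, a marker of CA1 pyramidal neurons, stood at 18.4, 9.09 and 11.7 against 48.7, 57.9 and 66.1 CPM (log2 fold change -2.14, SE 0.26). Avpr1b, the vasopressin receptor of area CA2, showed the largest decrease, at 0.0781, 0.0110 and 0.0410 against 2.53, 4.04 and 1.39 CPM (log2 fold change -5.89, SE 0.61). Arc, which encodes a synaptic protein induced by activity, stood at 23.6, 21.8 and 15.7 against 49.96, 80.4 and 102.8 CPM. Of 35 developmental transcription factors tested 10 were higher and 5 lower, near the shares of all genes tested (25.2 and 18.5%). The 4 microglia markers summed to 465.6 to 711 CPM in these libraries and to 129 to 148 CPM in the scrambled ones and the 4 astrocyte markers to 1922 to 2123 and 672 to 774 CPM. The 5 inhibitory markers summed to 222 to 235 and 229 to 294 CPM, and the 4 named CA1 markers to 100.4 to 239 and 283 to 393 CPM. These 4 were chosen after the data were seen, and over the whole CA1 marker list the groups overlapped. Some of the markers are shared genes themselves, as given above. For these lists their part in the result was not tested.

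Depletion of mH2A2 gave no call among shared genes in edgeR with the filter on low counts, and 112 of 5152 with no filter but at least 1 count, 87 higher (background 0.643%) and 25 lower (0.279%). Of 1699 shared genes tested 0 were higher and 0 lower at an adjusted p of 0.01 and a fold change of 2, and the background was 0% in both directions. At an unadjusted p under 0.05 stood 333 shared genes of 3238 in all. DESeq2 called 30 of 1700, 28 higher (background 0.568%) and 2 lower (0.252%). The genes named from these 30 were chosen after their values were seen. The lower ones were Egr2, at 1.197, 1.67 and 0.975 CPM in shH2afy2 against 8.39, 9.35 and 4.53 CPM in shScr, and Wnt9a, a secreted signal, at 5.06, 4.41 and 3.20 against 10.4, 13.3 and 6.49 CPM. Many of the higher ones were immune genes that stood highest in shH2afy2 replicate 2, such as Tap1, of antigen presentation, at 17.6, 59.6 and 10.7 against 4.85, 2.44 and 3.30 CPM, and Psmb8 at 6.45, 28.5 and 3.74 against 2.69, 1.79 and 2.68 CPM. Without that replicate DESeq2 called 16 of 1167 shared genes tested, 9 higher and 7 lower, against 69 of 13138 genes in all. Of these 16, 8 were among the 30. Some of the 30, such as Lcn2 and Gbp6, had no adjusted p in that fit. B and plasma cell markers summed to 148.7 CPM in that replicate and to 0.194 and 0.500 CPM in the other two, and their part in the result was not tested.

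Few shared genes differed with training. In intact mice 3 of 1833 were higher 1 h after training at an adjusted p of 0.01, against 0.0959% of all genes tested, and 0 were lower, against 0%. All 3 are immediate early genes. Egr2, a zinc finger transcription factor, stood at 10.4 and 11.7 CPM in trained and at 0.986, 0.878 and 1.27 CPM in untrained mice (log2 fold change 3.40, SE 0.16, edgeR adjusted p = 0.00058). Arc stood at 430.3 and 365.0 against 74.4, 91.9 and 114.8 CPM (log2 fold change 2.09, SE 0.17), and Sik1, a kinase, at 27.2 and 26.8 against 9.93, 8.76 and 10.7 CPM (log2 fold change 1.46, SE 0.09). The groups of these genes did not overlap, but the count rested on single libraries. Without either trained replicate it was 0, without untrained replicate 3 it was 1 and without untrained replicate 2 it was 52. DESeq2 called 34 of 1457 with an adjusted p, 24 higher (background 2.54%) and 10 lower (0.716%). In mice with the scrambled hairpin 0 of 1997 shared genes were called in edgeR in either direction, against 0% of all genes tested, with 174 shared genes of 1382 at an unadjusted p under 0.05. The number called there by DESeq2 was 31 of 1579, 20 higher (background 0.996%) and 11 lower (0.484%).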

How the data were processed

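RNA of CA1 was measured in 23 libraries and macroH2A ChIP in 30 lists, grouped by the labels. The members and the gene lists were chosen with earlier results of these data known.

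The authors aligned ChIP reads to mm10 with Bowtie2 and called broad domains in each library against its input (epic2 per the study's methods, SICER per the labels). In the lists as deposited, the counts are the ChIP and input reads in a domain, the log2 value is ChIP over input scaled by the caller, and the FDR is a p-value corrected by the caller, under 0.05. The RNA values as deposited are raw counts per gene, made by the authors with STAR and featureCounts (exons, or introns too in the training experiment).

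Domains were laid on bins of 200 bp with Python 3.11.15, NumPy 2.4.6 and pandas 2.3.3, and coverage is the percent of bins of a class under a called domain. Gene starts came from GENCODE release M21, and 96.2, 96.0 and 99.8% of the counts of the depletion, intact and training tables belonged to genes placed on the genome. Coverage was tested over libraries by exact permutation (SciPy 1.17.1), sign-flip within libraries between classes, two-sided, with Benjamini-Hochberg adjustment over 3 tests. RNA was tested in R 4.3.3 with edgeR 4.0.16 (TMM, filterByExpr with a least count of 10 and least total of 15, quasi-likelihood, Benjamini-Hochberg over all genes tested), with only the groups compared in a fit, and with DESeq2 1.42.0 as an alternative. CPM of single genes are scaled to library totals times TMM factors of the comparison, and those of the targeted genes, marker sums and levels per kb to the library totals alone. The tests were checked on simulated data. Each library is 1 mouse. P-values measure the spread between mice. Replicate numbers correlated in the deviations of the scrambled trained and untrained mice (0.17, 0.17 and 0.23). The labels give these libraries to different mice, so they were tested unpaired. The count called there stayed at 0 with the replicate block.

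Named genes were, for each comparison, up to 10 higher and 10 lower with the largest log2 fold change among those called with groups that do not overlap and a mean of at least 1 CPM, predicted genes left out, and up to 4 members of each list by mean CPM. Named domains were the 10 longest and the 3 with the most gene starts. Alternatives changed the share of bins, the number of mice, the FDR (0.01), the least length (1000 bp), the window of the start (2000 bp), normalization, filter, block and single replicates. In the intact table a total of 27 rows were named by a date instead of a gene, of which the 4 whose name repeats were left out and the others could not be placed. The CA1 marker sum is over the 4 markers named, chosen after seeing the data, and a sum over the whole CA1 marker list is not reported here.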

Additional observations from a re-analysis of the deposited data

Results flagged for a closer look

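The median log2 value of shared domains in the 6 h untrained mH2A1 list of replicate 4 was 0.91, which lay apart from the other 4 lists of its group (gap over range 0.746, where Dixon's limit for 5 values is 0.71). Of 8 such groups of values tested this was the 1 past the limit, and chance puts about 1 in 20 past it.

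At 1 h the difference in coverage between shared and mH2A1-only domains differed between the antibodies by 31.4 points, at 26.0 for mH2A2 (n = 6) and -5.43 for mH2A1 (n = 4, exact permutation test over libraries, two-sided p = 0.00476). The mice of the 2 antibodies were different animals, and the classes had been chosen by mH2A2 coverage in other mice.

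In trained mice the difference by mH2A1 was 18.8 points at 30 min (n = 2) and -5.50 points at 1 h and 6 h (n = 7), which is 24.3 points apart, with every library of each time on its own side of 0. This difference was not tested, and the antibody against mH2A1 changed between these times, so that time and antibody cannot be told apart.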

How the results depend on the processing

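The number of shared domains was 38734 by the rule, 19890 with all bins in the mH2A2 consensus, 18371 with all 3 mice and 20371 to 26861 without 1 replicate. The lower coverage of shared than mH2A1-only domains by mH2A1 kept its direction in 10 of 10 leave-one-out sets at 6 h (-4.79 to -4.19 points) and 4 of 4 at 1 h (-6.71 to -4.68), but turned to 2.12 and 1.35 points in the 2 higher of 4 GC classes at 6 h and to 3.69 and 2.01 at 1 h. For mH2A2 at 1 h, leaving out 1 library gave 24.8 to 28.6 points and 0.16 to 0.18 in log2, where 5 libraries cannot pass 0.05. The training difference turned to 0.332 (divided by the coverage of the genome), 2.82 (minus mH2A1-only) and 0.268 (without trained replicate 2, of -7.75 to 0.268) for mH2A2, to -1.60 (minus mH2A1-only), -0.0852 (FDR under 0.01) and as low as -1.57 of -1.57 to 1.83 without 1 replicate for mH2A1 at 1 h, and ranged from -2.62 to -1.14 at 6 h, where it passed without untrained replicate 1 (adjusted p = 0.0476).

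Shared genes called in shH2afy were 515, 798 with no filter but at least 1 count, 332 with the replicate block and 283 to 635 without 1 replicate. In shH2afy2 they were 0, 30 with DESeq2, 16 with DESeq2 without shH2afy2 replicate 2 (chosen after seeing the data), 112 with no filter and 0 in edgeR without any 1 replicate. In intact mice they were 3, 34 with DESeq2, 0 with the replicate block and 0 to 52 without 1 replicate, in scrambled mice 0 and 31 with DESeq2, and in the libraries labelled mH2A1 shRNA 1168, 1103 with the block and 1025 to 1213 without 1 replicate. Outside the scrambled mice the correlations between libraries of the same replicate number were -0.29 to 0.09. The median level of shared genes was 0.253, 0.276 and 0.318 CPM in the intact, depletion and training libraries, 0.417, 0.425 and 0.492 with any bin from 2000 bp before the start, 0.595, 0.581 and 0.646 with at least 50% of the body shared, 0.0764, 0.108 and 0.106 with all 3 mice, and 0.0902, 0.102 and 0.0264 per kb (added after seeing the data). The cause of these changes was not tested. Depth of the ChIP libraries is unknown from the lists, and low genes were counted at 9.95 M counts at least.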

Other observations

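Zinc finger protein genes are mostly outside shared domains. Of the 31 inside, 19 were tested in the depletion experiment, with 4 higher and 0 lower, against 10.5 and 1.2% of all genes tested. Zfp703 stood at 73.1 ± 11.3 against 35.2 ± 5.00 CPM (SD, n = 3), Zfp984 at 10.55 ± 1.96 against 3.59 ± 1.29, Zfp991 at 7.30 ± 1.96 against 2.36 ± 0.577 and Zfp992 at 3.13 ± 0.548 against 0.4725 ± 0.1455 CPM. All except Zfp703 were chosen after their values were seen, and Zfp984, Zfp991 and Zfp992 have close copies, so their counts are uncertain. In the untrained libraries labelled mH2A1 shRNA these 4 were higher as well, among 5 higher and 2 lower of 22 tested, against 25.2 and 18.5% of all genes tested.

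Cytochrome P450 genes of the Cyp4f family with a shared start differed among themselves. Cyp4f15 stood at 2.94, 2.87 and 3.64 CPM in shH2afy against 7.13, 8.84 and 10.1 CPM in shScr (log2 fold change -1.46, SE 0.21, edgeR adjusted p = 0.0024), while Cyp4f16 stood at 7.645 ± 1.58 against 2.78 ± 0.162 CPM and Cyp4f18, an enzyme of leukocytes, at 6.31 ± 3.73 against 0.0679 ± 0.118 CPM. The last 2 were chosen after their values were seen.

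Of 4 oligodendrocyte genes with a shared start (Mag, Mal, Olig2 and Sox10) 0 passed the thresholds in the depletion experiment, with log2 fold changes of -0.43 to 0.67.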
